A study of Mus musculus with 5 samples.

Results

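The genes described here encode the catalytic subunit of telomerase, the proteins of the telomere-binding complex shelterin and one telomere helicase. They are Tert, Terf1, Terf2, Terf2ip, Tinf2, Acd, Pot1a and Rtel1, 8 of the 18193 genes that the arrays name, and they were taken by gene symbol, as every probe set that the platform annotation pairs with exactly 1 of these symbols. That gave 22 probe sets, short sets of array probes that each read 1 transcript region. The samples were activated cultures measured on Affymetrix mouse arrays. They came from a CD8 T cell clone and from mice transgenic for its T cell receptor. One group was the G9C8 clone, cytotoxic T cells kept in culture and represented by 3 separately frozen vials of this single clone, 1 array each. The other was cultured splenocytes of NOD.G9C8 transgenic mice, 2 animals of the NOD/LtJ background, aged 4 to 8 weeks, 1 array each; the promoter of the transgene is not given in the sources used here. Both groups received the same insulin B chain peptide at 10 µg/ml for 3 days and a rest in IL2 at 5 IU/ml for 2 days, and no sort of the cells is named before RNA extraction.

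Telomeres are the repeat ends of chromosomes. They shorten as cells divide, and telomerase adds repeats back by copying an RNA template with the Tert protein. Shelterin covers the repeats, keeps the ends from being handled as DNA breaks and controls access of telomerase. T cells are known for switching telomerase on for a time after activation, and a clone is kept through repeated rounds of division in culture. The comparison therefore asks how the machinery of telomere upkeep stood in the clone against splenocytes of transgenic mice, both activated in the same way.

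The deposited signals are on a linear scale, and every array had been scaled to the same trimmed mean by the submitters' software. Median signals over all probe sets lay between 132.2 and 141.9 on the 5 arrays. Markers of CD8 T cells were bright in both groups. Their summed signal over 6 genes was 65893 to 70957 in transgenic and 52702 to 60202 in clone arrays. Of these genes, Cd2 (-1.75 on the log2 scale), Cd8a (-0.68) and Cd8b1 (-0.65) were called lower in clone. Cd3e, Cd3g and Ptprc were not called. Of the CD4 T cell markers, Cd4 was dim at 32.1 to 50.6. Zbtb7b gave 371 and 398.7 in transgenic and 381.7 to 429.9 in clone arrays, without a call. Markers of myeloid cells summed over 8 genes to 5618 to 8541 in transgenic and 1387 to 1819 in clone arrays, most of the transgenic sum being Lyz2 at 3497 and 5549 (237.1 to 326.9 in clone). Of the 7 tested myeloid genes 6 were lower in clone, with Tyrobp at 379.3 and 568.7 against 17.5 to 27.8, and Cd68 was above the transgenic values on all clone arrays without a call (0.50). Markers of B cells summed over 5 genes to 1876 to 2304 against 544.3 to 808.5, carried by Cd74 at 811.6 and 1210 against 171.4 to 203.5 and Cd79b at 654.5 and 594 against 2.7 to 46; Cd79a, Ms4a1 and Pax5 overlapped between groups. Markers of NK cells summed over 3 genes to 1623 to 1758 against 191.5 to 230, almost wholly through Eomes, which activated CD8 T cells also express; Ncr1 stayed between 55.1 and 91. The part of other cells in the differences below was not tested. In such bulk samples fewer cells of a type and less RNA per cell cannot be told apart. Proliferation markers summed over 11 genes to 30716 to 33966 in transgenic and 33307 to 52565 in clone arrays. Of these, 5 were called higher in clone, none lower and 6 not called, 45.5% called beside 43.8% of all genes tested. Their median difference was 0.60 on the log2 scale, against -0.01 over all genes tested. The bright Pcna gave 10367 and 10389 in transgenic and 9588 to 11349 in clone arrays. Within the clone group the second array was the low one, with 11 of these 11 genes under the average of clone arrays 1 and 3, and a median deviation of -0.78 on the log2 scale.

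Of the 8 genes, Tert lay below the level at which genes were tested and the other 7 were tested. Pot1a, which binds the single-stranded end of the telomere, was lower in clone, Terf2ip was also called lower, and Terf1 was higher. Terf2, Tinf2, Acd and Rtel1 were not called. The threshold for a call was an adjusted p of 0.05 in limma, with p-values adjusted over all 12446 genes tested and each gene read by its brightest probe set. Over all these genes 43.8% were called, 22% as higher and 21.7% as lower in clone, so that 3 of 7 genes is a share near that background. The median difference of the 7 genes, on the log2(signal + 20) scale and as clone minus transgenic, was -0.09, against -0.01 over all genes tested. Only Pot1a had a difference of more than 2-fold, and 12.3% of all tested genes had a larger one. Of the 17 probe sets that passed the filter on signal, 2 were called higher, 4 lower and 11 were not called, when all 27022 probe sets past the filter were tested singly. Of those 41.9% were called, 19.8% as higher and 22.1% as lower.

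**Figure D1:**
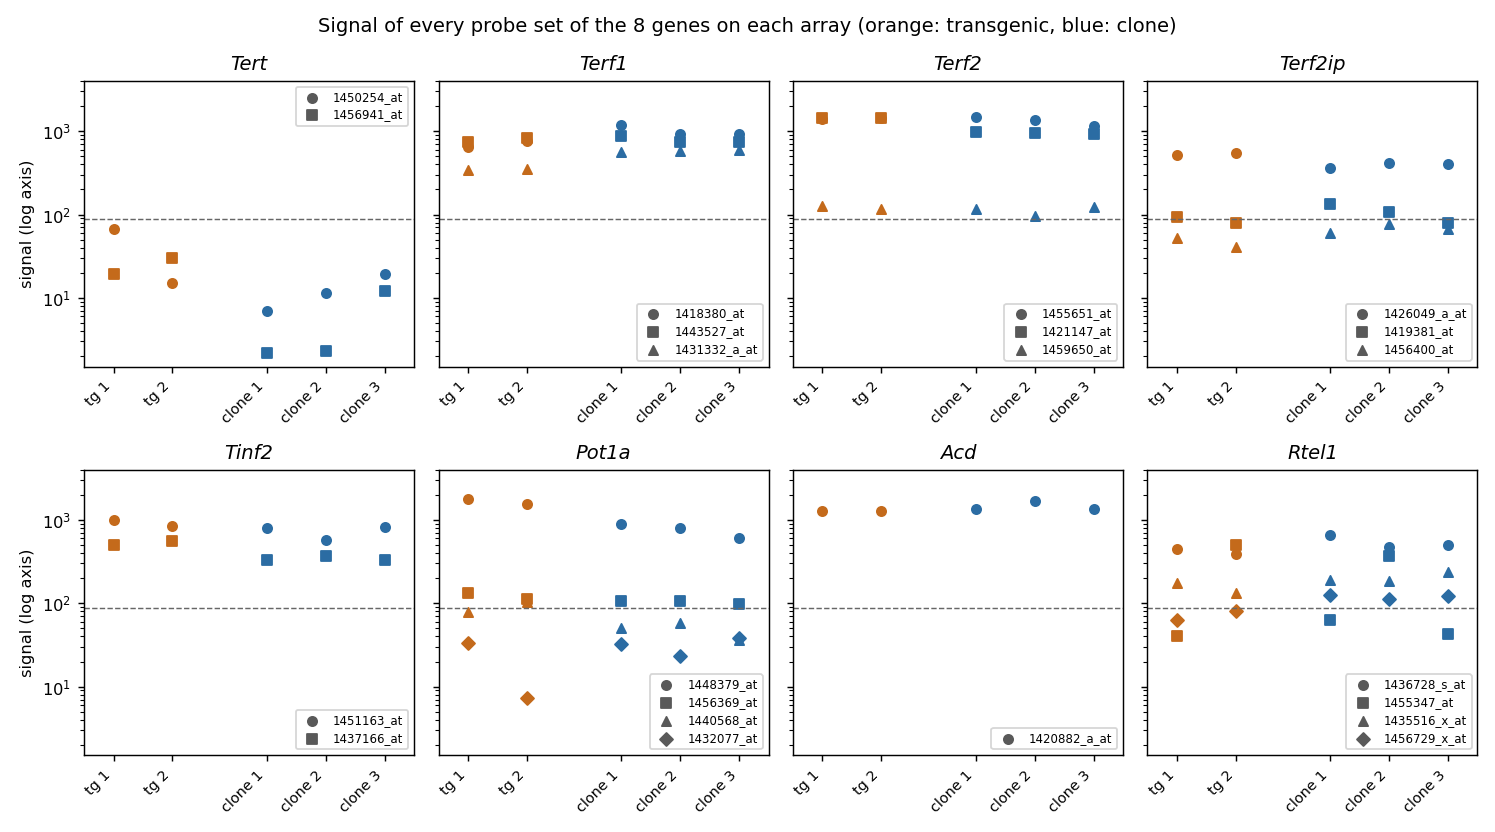
Signal (log axis) of every probe set of the 8 genes on the 2 transgenic arrays (tg, orange) and the 3 clone arrays (blue), with 1 marker shape per probe set; the dashed line is the filter level of 88.2. Both Tert probe sets stay below the line on every array, the brightest Pot1a probe set is lower on all clone arrays, and 1 Rtel1 probe set is high on the second array of each group.

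Tert, the reverse transcriptase of telomerase, was dim on every array. Its probe set 1450254_at gave 67.7 and 15 in transgenic cells and 7, 11.6 and 19.2 in clone cells, and the groups overlapped. Its probe set 1456941_at gave 19.1 and 30.5 on the transgenic and 2.2, 2.3 and 12.1 on the clone arrays, so that all clone values lay below the transgenic ones. Mean signals over the 5 arrays were 24.1 and 13.2, in the lowest 17.8% and 10.4% of probe sets, against a filter level of 88.2. When every gene was tested without a filter, the difference of Tert was -0.78 (95% confidence interval -1.72 to 0.15; limma adjusted p = 0.197), with 29.3% of 18193 genes called. With every probe set tested singly and without a filter, 1456941_at was called lower (-0.82, limma adjusted p = 0.0417). In that test 1450254_at was not called (adjusted p = 0.214). The share of all probe sets called in it is not given here. The table holds no detection calls, so these values do not say whether Tert RNA was present in either group. The promoter of Tert holds matches to the GC box, to which Sp1 family factors bind, a motif found in 35.7% of all promoter windows. Its last 110 bases before the gene start, with 20 bases after it, are shown because regulators of Tert described further on differed between groups. The stretch is chr13:73626801-73626930 on the plus strand of GRCm38.p6 (RefSeq), and capitals mark the GC box GGGCGG as it reads on the opposite strand.
Tert: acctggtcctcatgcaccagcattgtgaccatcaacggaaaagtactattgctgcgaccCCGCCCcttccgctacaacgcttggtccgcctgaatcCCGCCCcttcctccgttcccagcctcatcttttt

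Terf1 encodes TRF1, a shelterin protein that binds the duplex telomere repeat and takes part in length control. Its brightest probe set, 1418380_at, gave 649.1 and 769 in transgenic cells and 1176.5, 935.6 and 929.2 in clone cells. All clone values lay above the transgenic ones, with means of 1014 ± 141 (SD, n = 3) against 709 ± 84.8 (SD, n = 2). The difference was 0.50 (95% confidence interval 0.17 to 0.83; limma adjusted p = 0.0219). Without the first transgenic array it was 0.38 (adjusted p = 0.165) and without the first clone array 0.39 (adjusted p = 0.0615), so the call rested on each of these arrays. A second probe set, 1431332_a_at, of a type that can read several transcripts of the same gene, gave 338.4 and 348.1 against 567.5, 576.9 and 596.9. The groups did not overlap, with a difference of 0.72 (0.44 to 1.01; adjusted p = 0.00199 in the test of single probe sets). The remaining one, 1443527_at, gave 747.5 and 818.7 against 880.8, 741.4 and 737.9 and overlapped between groups, with a difference of 0.00 (-0.29 to 0.30). The probe sets of Terf1 therefore gave unequal answers, 2 higher and 1 not called.

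Terf2 encodes TRF2, the shelterin protein that folds and shields the chromosome end. Its brightest probe set, 1455651_at, gave 1404.9 and 1435.3 on the transgenic and 1498.5, 1366.9 and 1164.6 on the clone arrays. The groups overlapped, and the difference was -0.09 (95% confidence interval -0.37 to 0.20; limma adjusted p = 0.608). Another probe set of Terf2, 1421147_at, gave 1420.9 and 1449.2 against 967.6, 943.9 and 932.1. Here every clone array lay below every transgenic array, with a ratio of the group means of 0.6605. Its difference of -0.59 (-0.82 to -0.35) was called in the test of single probe sets (adjusted p = 0.00199). The dim probe set 1459650_at ranged from 116.3 to 126.7 in transgenic and from 95.4 to 123.8 in clone arrays and was not called. Whether Terf2 counts as unchanged or lower thus turned on which of its bright probe sets stood for the gene.

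Terf2ip encodes RAP1, which joins telomeres through TRF2. Its brightest probe set, 1426049_a_at, gave 525.1 and 544 on the transgenic and 364.8, 418 and 400.5 on the clone arrays. The groups did not overlap, and the difference was -0.42 (95% confidence interval -0.73 to -0.11; limma adjusted p = 0.0333). The call did not hold without the first transgenic array (adjusted p = 0.126), the second transgenic array (0.163), the first clone array (0.0849) or clone array 3 (0.0592), with differences of -0.45, -0.40, -0.37 and -0.43. It also ended under quantile normalization (-0.32, adjusted p = 0.0881) and with the replicate number as a block (-0.43, adjusted p = 0.0796). The dim probe sets of Terf2ip pointed the other way. The probe set 1419381_at gave 94.3 and 79.2 against 132.7, 107.3 and 79.7, a difference of 0.23 (-0.40 to 0.86) that was not called. The probe set 1456400_at, below the filter, gave 52.7 and 41.3 against 60.2, 77.7 and 66.3. With the mean over all of its probe sets the difference of Terf2ip was 0.067 (adjusted p = 0.784).

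Tinf2 and Acd encode TIN2 and TPP1, the bridging proteins of shelterin. TIN2 links TRF1 and TRF2, and TPP1 carries the POT1 proteins and recruits telomerase. The brightest probe set of Tinf2, 1451163_at, gave 986.8 and 838.3 on the transgenic and 794.9, 578.4 and 824.5 on the clone arrays. All clone values lay below the transgenic ones, by a margin that the spread between arrays exceeded, and the difference was -0.32 (95% confidence interval -0.71 to 0.07; limma adjusted p = 0.163). The second clone array was the low one, at -0.47 from the mean of the other clone arrays on the log2 scale. The other probe set of Tinf2, 1437166_at, gave 502.8 and 563.8 against 333.5, 364.8 and 331.1 and was called lower in the test of single probe sets (-0.61, -0.92 to -0.29; adjusted p = 0.00786). With the mean over both probe sets Tinf2 was called lower (-0.46, adjusted p = 0.0117). Acd was read by a single probe set, 1420882_a_at. It gave 1268.9 and 1272.8 on the transgenic and 1352, 1674.1 and 1354.6 on the clone arrays. All clone values of Acd were the higher ones, and the difference of 0.19 (-0.09 to 0.47) was not called (adjusted p = 0.244).

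Pot1a encodes a POT1 protein, which covers the single-stranded overhang at the chromosome end and holds back the damage kinase ATR there. Its probe set 1448379_at gave 1803.4 and 1543.3 on the transgenic and 899, 789.1 and 601.7 on the clone arrays. The lowest transgenic value was well above the highest clone value, and the means were 1673 ± 184 (SD, n = 2) and 763 ± 150 (SD, n = 3), a ratio of clone to transgenic of 0.456. The difference was -1.13 (SE 0.17; 95% confidence interval -1.52 to -0.74; limma adjusted p = 0.000931). With any 1 array left out it stayed between -1.25 and -0.97 and was called. The other probe sets of Pot1a were dim. The probe set 1456369_at gave 132.8 and 112.8 against 105.2, 107.4 and 97.8, which did not overlap but was not called (-0.21, -0.72 to 0.31; adjusted p = 0.499). The probe set 1440568_at, below the filter, gave 77.5 and 104.8 against 50.8, 57.7 and 35.9. The probe set 1432077_at, also below it, gave 32.9 and 7.3 against 32.8, 23.3 and 38.1 and overlapped. With the mean over all 4 probe sets, 3 of them dim, Pot1a differed by -0.40 without a call (adjusted p = 0.108). The second mouse gene for a POT1 protein, Pot1b, was dim throughout, at 33.1 and 13.8 in transgenic and 9.5, 16 and 6.9 in clone arrays, and was not tested.

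The promoter stretches of Pot1a and Tinf2, both with a probe set called lower, are shown because each holds the palindrome TGACGTCA, the full cyclic AMP response element to which CREB and ATF factors can bind. Of the 8 genes, 7 have a promoter window in the RefSeq table (250 bases before to 50 after the gene start, GRCm38.p6), and none is printed for Terf1. The search covered TGACGTCA, the E-box CACGTG, the GC box GGGCGG and the telomere repeat TTAGGG on both strands, with motifs chosen after the sequences and the values were seen. TGACGTCA was found in 1.79% of all 32851 windows and, among these genes, in Pot1a and Tinf2. It was absent from the windows of Terf2 and Terf2ip, which also each had a probe set called lower. GGGCGG was found in 35.7% of windows and in those of Tert, Terf2, Terf2ip, Pot1a and Rtel1. CACGTG (7.15% of windows) and TTAGGG (10.6%) were found in no window of these genes. A match is a run of letters and not a measured binding site. The stretches below are chr6:25809199-25809328 and chr14:55681798-55681927, both on the minus strand, from 110 bases before the start to 20 after it, with TGACGTCA in capitals.
Pot1a: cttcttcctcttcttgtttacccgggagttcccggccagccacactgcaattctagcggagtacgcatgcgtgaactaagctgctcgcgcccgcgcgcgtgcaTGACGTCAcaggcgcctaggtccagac
Tinf2: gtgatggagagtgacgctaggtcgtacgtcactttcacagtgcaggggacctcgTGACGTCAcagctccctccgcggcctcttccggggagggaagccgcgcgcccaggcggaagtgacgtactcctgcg
Counted from the first base of the gene, the motif begins at -7 in Pot1a, where it reaches into the transcribed part, and at -56 in Tinf2.

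Rtel1 encodes a helicase that unwinds telomere loops and other DNA structures. Its brightest probe set, 1436728_s_at, of a type that can read transcripts of several genes, gave 448.3 and 392.3 on the transgenic and 650.8, 471 and 494.7 on the clone arrays. All clone values were the higher ones, with a difference of 0.33 (95% confidence interval -0.06 to 0.72; limma adjusted p = 0.149). A pair of probe sets marked as cross-hybridizing pointed the same way. The probe set 1435516_x_at gave 175.9 and 131.6 against 190.4, 185.4 and 239.2 (difference 0.38; -0.10 to 0.86), and 1456729_x_at gave 63.8 and 81.2 against 126.2, 113.2 and 121.3 (0.61; 0.05 to 1.16; adjusted p = 0.0763 in the test of single probe sets). In 3 of the 4 Rtel1 probe sets every clone array was thus above every transgenic array, without a call. The remaining one, 1455347_at, gave 40.8 and 504.8 against 62.2, 372.5 and 42.3, high on the second array of each group, so that its difference of -0.50 had an interval of -2.68 to 1.68. Without probe sets of the types that can cross-hybridize, that erratic probe set stands for Rtel1 and the sign of its difference turns.

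**Figure D2:**
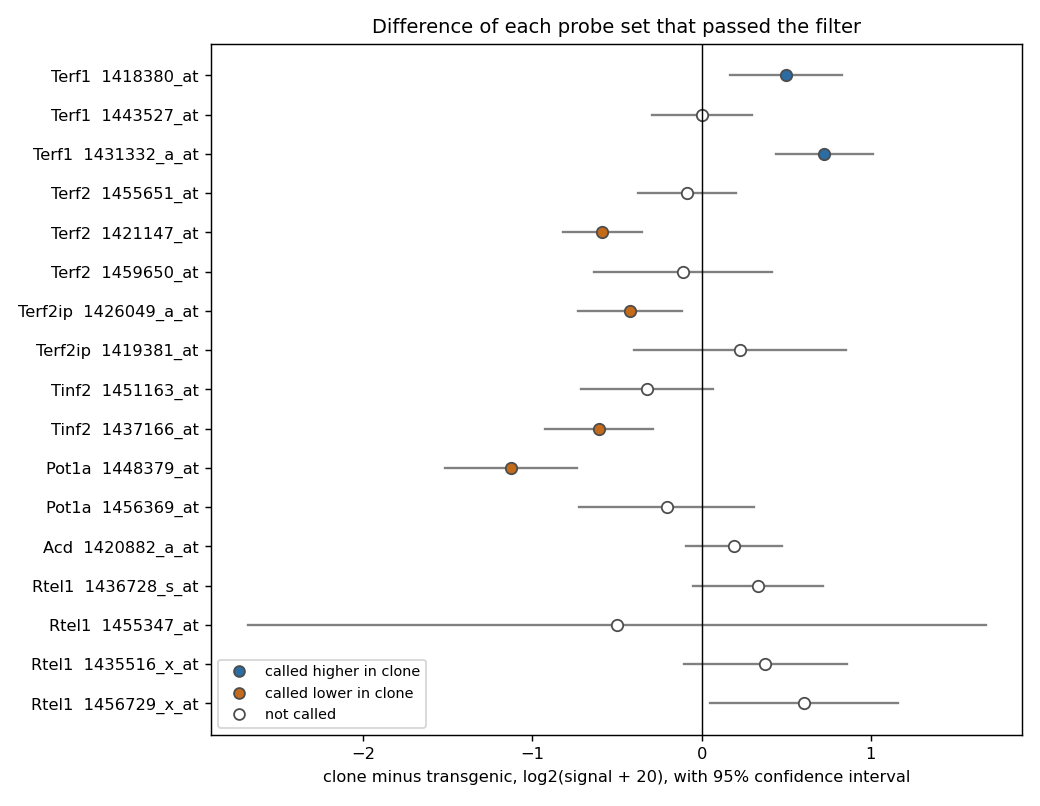
Difference between clone and transgenic arrays on the log2(signal + 20) scale with its 95% confidence interval (horizontal axis) for each of the 17 probe sets that passed the filter, filled where called in the test of single probe sets. Pot1a has the lowest value at -1.13, and 1 of the bright probe sets each of Terf2 and Tinf2 is called lower while another is not called.

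Groups did not overlap in 12 of the 17 probe sets that passed the filter, against 63.8% of all probe sets past it. Across the probe sets of the same gene, the differences spanned 0.72 for Terf1, 0.50 for Terf2, 0.65 for Terf2ip, 0.29 for Tinf2, 0.92 for Pot1a and 1.11 for Rtel1, against a median of 0.55 over the 5612 genes with several tested probe sets. Within groups, Pot1a spanned 0.56 on the log2 scale from the highest to the lowest clone array and the second transgenic array differed from the first by -0.22, beside its difference of -1.13. From the mean of the other clone arrays, clone array 2 deviated by -0.47 for Tinf2, -0.26 for Rtel1 and -0.16 for Terf1, and by 0.30 for Acd, 0.12 for Terf2ip, 0.10 for Pot1a and 0.05 for Terf2. That is the array with the lower proliferation markers; the genes deviated both ways there, and the part of cell division in these values was not tested. Over the alternative settings, the plot of differences by setting shows Pot1a apart from the other tested genes in all but one.

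**Figure D3:**
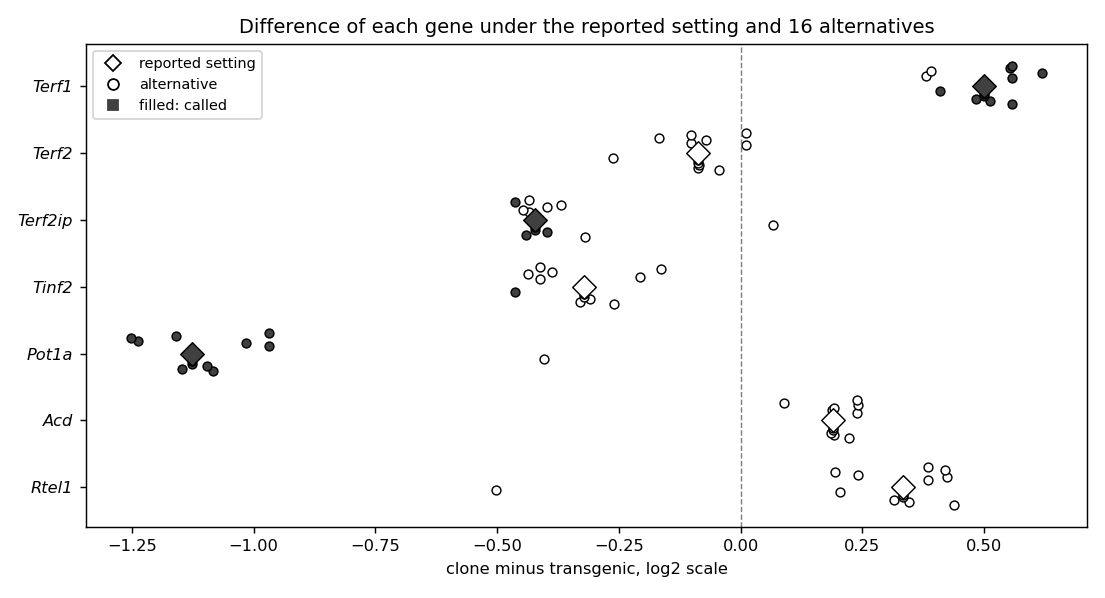
Difference between clone and transgenic arrays on the log2 scale (horizontal axis) for each of the 7 tested genes, under the reported setting (diamond) and 16 alternatives (circles), filled where called. Pot1a lies between -1.25 and -0.97 except at -0.40 with the mean over probe sets, and Acd, Terf2 and Rtel1 have no filled point. Where every probe set was tested on its own, only the brightest one of each gene is shown.

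The partners of these genes were described from lists of telomere genes. Over 5 lists with 68 tested genes, 14 were higher, 16 lower and 38 not called, 44.1% called beside the 43.8% of all genes, with a median difference of 0.03. Among 14 genes of the telomerase particle and its assembly 7 rose, 2 fell and 5 had no call, with a median of 0.33. The share called was 64.3%, beside the 43.8% of all genes. The proteins of the H/ACA core, which hold the telomerase RNA and also guide the modification of ribosomal RNA, were all called higher. Dkc1, encoding dyskerin, gave 3099 and 3458 on the transgenic and 4647, 4168 and 4811 on the clone arrays (0.47; limma adjusted p = 0.00528), and 0.39 without the first transgenic array (adjusted p = 0.0599). Gar1 gave 961.7 and 1012.4 against 2111, 1936 and 2232 (1.07; adjusted p = 8.44e-05). Nhp2 (0.54) and Nop10 (0.29) were the others, named after their values were seen. The call of Nop10 ended under quantile normalization (0.13, adjusted p = 0.215) and with the replicate block (0.27, adjusted p = 0.148). It also ended without the filter (adjusted p = 0.0545) and without the trend setting of limma (adjusted p = 0.100). Nor did it hold without the first transgenic array (0.19) or clone array 3 (0.27). Ruvbl1, an ATPase of particle assembly, was higher by 0.93, and Naf1, an assembly chaperone of the core, by 0.76. Wrap53, whose product brings telomerase to Cajal bodies in human cells, was lower: it gave 528.2 and 550.3 against 302.1, 274.2 and 283.7 (-0.87; adjusted p = 0.00134). The second lower gene was Parn (-0.53), named after its values were seen, a nuclease that trims the telomerase RNA in human cells. It was not called without the first transgenic array (-0.44, adjusted p = 0.0836) or without probe sets that can cross-hybridize (-0.19, adjusted p = 0.315).

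Of 13 genes of telomere end replication, 3 were higher, 2 lower and 8 not called, with a median of 0.38. That is 38.5% called, beside 43.8% of all genes tested. The CST complex, which brings DNA polymerase alpha to the overhang and ends extension by telomerase, was divided among its subunits. Ctc1 gave 220 and 222.7 on the transgenic and 558.9, 459.6 and 575.3 on the clone arrays (1.19, 95% confidence interval 0.83 to 1.54; limma adjusted p = 0.000441). Stn1 went the other way, with 665.4 and 589.6 against 373.4, 344.2 and 285.2 (-0.88; adjusted p = 0.00237), although its mean over all probe sets differed by -0.18 (adjusted p = 0.432). Ten1 was higher by 0.39 (adjusted p = 0.0352). Its call ended with the replicate block (0.38, adjusted p = 0.0852) and without the trend setting of limma (adjusted p = 0.0588). It also ended without either transgenic array (0.38 and 0.40), clone array 1 (0.32) or clone array 3 (0.38). Among the subunits of the general single-strand binder RPA, Rpa3 was higher (0.97) and Rpa2 lower (-0.44). Rpa2 was not called without the first (-0.51) or the second transgenic array (-0.37). Nor was it called without the trend setting of limma (adjusted p = 0.0531). Of 12 shelterin-associated genes none was called higher and 3 were lower, with a median of -0.32 and 9 not called. That is 25% called, all of it lower, beside 43.8% of all genes called and 21.7% called lower. At an unadjusted p under 0.05 in limma the counts were 1 higher and 4 lower, beside 3195 higher and 3155 lower among all 12446 genes. The 3 shelterin-associated genes called lower were Daxx (-0.77), Atrx (-0.50) and Tnks2 (-0.74). Daxx encodes a histone chaperone that deposits at telomeres with the product of Atrx. Tnks2 encodes a tankyrase, of the enzymes that release TRF1 from telomeres in human cells. The probe sets of Atrx ranged from -1.19 to 0.66, 2 of them called higher, so its direction is uncertain.

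Helicases, nucleases and end repair genes included 2 higher, 5 lower and 12 uncalled members of 19, with a median of -0.01. This is a share of 36.8% called, beside 43.8% of all genes tested. Atm, the kinase that signals unshielded ends when TRF2 is lost, gave 2544 and 2547 on the transgenic and 978, 1015 and 584.4 on the clone arrays (-1.59; limma adjusted p = 0.000532). Nbn (0.87) and Mre11a (0.74), whose products sense broken ends together, were the higher ones. Mre11a was not called without either transgenic array (0.86 and 0.62), clone array 1 (0.57) or clone array 3 (0.70). Nor was it called with the mean over its probe sets (0.39) or without the trend setting of limma (adjusted p = 0.0556). Rad51d was called lower (-0.94), but 1 of its other probe sets was called higher, its differences ran up to 0.47, and it was not called as a mean of its probe sets (-0.29, adjusted p = 0.112) or without the second transgenic array (-0.87, adjusted p = 0.0740). Among 10 regulators of the Tert promoter, known mostly from human cells, 2 rose, 4 fell and 4 had no call. Their median was -0.35, with 60% called beside the 43.8% of all genes. Myc, an activator of Tert, gave 2631 and 2943 on the transgenic and 4263, 2452 and 3072 on the clone arrays, overlapping between groups (0.19, -0.27 to 0.65; adjusted p = 0.476), and its difference was -0.020 without clone array 1. Mxd1, which competes with MYC for their common partner and represses Tert, gave 454 and 478.4 against 125.5, 131.3 and 153.1 (-1.64; adjusted p = 0.000151). Max, that partner, was lower by a difference of -1.12, and Sp3, a GC box factor, by -0.89. Mxi1, another competitor of MYC, was higher (0.83). Tert itself was too dim to set beside these.

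**Figure D4:**
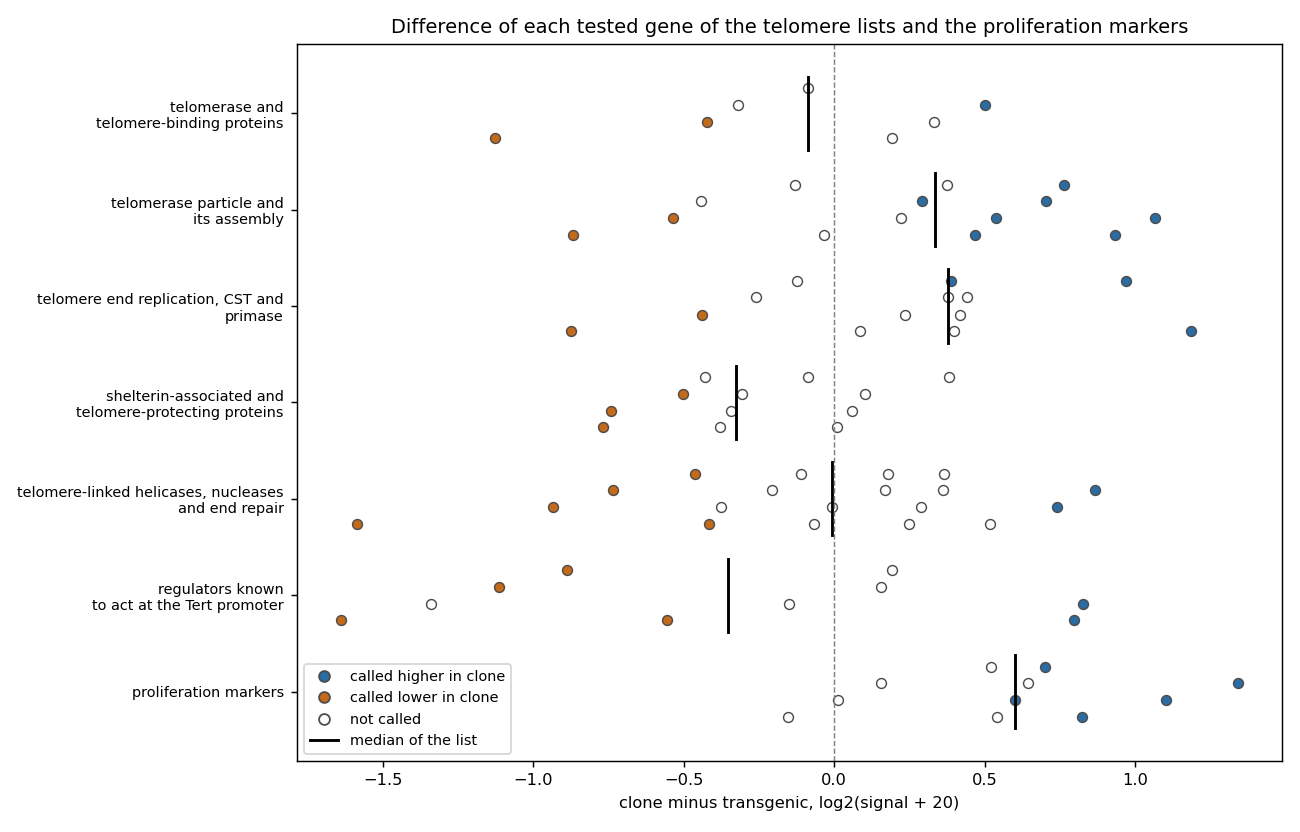
Difference between clone and transgenic arrays on the log2(signal + 20) scale (horizontal axis) for each tested gene of the telomere lists and of the proliferation markers, 1 point per gene, filled where called, with the median of each list as a black bar. The telomerase particle has 7 of 14 genes called higher, and the shelterin-associated genes have 3 of 12 called lower and none higher. The 8 genes of the top row have 3 of 7 tested genes called. Over all genes tested, 22% were called higher and 21.7% lower.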

How the data were processed

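Total RNA (8 µg per culture) was labelled with biotin and hybridised to 1-colour arrays, per the labels' protocols. The deposited values are linear intensity, 1 signal per probe set, made by the authors with GCOS (version not given), per the submitters' processing notes. Their 2% trimmed mean is 500 on each of the 5 arrays, so they were used as deposited. Groups came from the sample titles. The tests thus rest on variation among 3 frozen vials of a single clone and between 2 animals.

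Of 45101 probe sets, 64 controls were left out and 34945 have 1 gene symbol, 932 several and 9160 none. Values were taken as log2(signal + 20), which understates differences of dim genes. The filter required a mean signal of at least 88.2 (the 40th percentile), each gene was read by its brightest one, and groups were compared with limma 3.58.1 (R 4.3.3), lmFit and eBayes with trend, two-sided, with Benjamini-Hochberg adjustment and 3 residual degrees of freedom. The fit was tested on simulated data. Over 20 runs it recovered 16.6% of 1.5-fold, 52.3% of 2-fold and 85.1% of 4-fold changes. A gene without a call can therefore still differ. The number of arrays limits the precision.

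Members, gene lists and tests were chosen with earlier results of these data known. Of 125 listed genes, 7 had no probe set named here and were not analysed here. All members are named, with up to 4 called genes of each telomere list by size of difference, Pot1b, Ctc1, Dkc1 and Myc; other genes are marked as named after their values were seen or complete a count of 5 or fewer. Figures were drawn with matplotlib 3.10.9.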

Additional observations from a re-analysis of the deposited data

How the results depend on the processing

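The 16 alternatives were quantile normalization, pseudocounts of 1 and 50, no filter or one at the 60th percentile, averaging the probe sets of a gene, dropping those that can cross-hybridize, every probe set on its own, eBayes robust or without trend, a replicate block, and fits without each array. Pot1a was called lower in all of them except the mean over probe sets (-0.40, adjusted p = 0.108). Terf1 was called higher in all except without the first transgenic or the first clone array. Where every probe set was tested on its own, the brightest one stands for its gene in these counts. Read so, Acd, Terf2 and Rtel1 were called in none, and Tinf2 was called with the mean over probe sets only. In the test of single probe sets, 1421147_at of Terf2 (-0.59, limma adjusted p = 0.00199) and 1437166_at of Tinf2 (-0.61, adjusted p = 0.00786) were nevertheless called lower. The direction of Terf2ip turned with the mean over probe sets (0.067), as that mean gives its dim probe sets equal weight. Members called lower were 1 in place of 2 under quantile normalization, with the mean over probe sets and with the replicate block. With 1 array left out, members called ranged from 1 to 3, those called higher from 0 to 1, those called lower from 1 to 2, genes called from 3663 to 5492 and other telomere genes called from 23 to 39. Testing every probe set called 11329 in place of 5448 genes, over more features. The median of the tested members, -0.09, became -0.32 without probe sets that can cross-hybridize and had no stable sign: it was 0.067 with the mean over probe sets, and 0.011 both with the replicate block and without clone array 3. Of the 25 other genes named, 16 kept their call and direction in every alternative run (15 for Gar1, which has no probe set without a cross-hybridizing mark), 8 lost their call in at least 1, and the uncalled Myc turned direction without clone array 1 (-0.020). Both filter settings, the test of single probe sets and both eBayes settings leave the difference of a gene as it was. Direction could not turn in those. Atrx counts as kept, although 2 of its other probe sets were called higher. Replicate numbers name separate vials and mice. Deviations of same-numbered arrays correlated at -0.03 and -0.08 over genes. The deviations of the 2 transgenic arrays mirror each other, so these correlations cannot tell whether same-numbered arrays share more than a number. The replicate block gave 4633 called genes and ended the calls of Terf2ip, Nop10 and Ten1 among the genes named. Where an array was left out of the transgenic group, the lone one was assumed to vary like the clone arrays. Dim probe sets, Tert above all, had no detection call.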

Other observations

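The Rtel1 probe set 1455347_at differed widely between arrays of the same group. Its second transgenic array exceeded its first by 3.11 on the log2(signal + 20) scale, and its second clone array exceeded the average of the others by 2.46. Of 45037 probe sets other than controls, 1, this one, rose that far in both groups. The limits of that count were its own values, so the count does not rank probe sets by their spread between replicates. The probe set 1435516_x_at, which the platform annotation ties to the same database sequence, gave 131.6 and 185.4 on those arrays, not above the first array of its group. This probe set was singled out after its values were seen, and the cause was not tested.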
